A study of Mus musculus with 3 samples.

Results

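Translation initiation and elongation factors are the proteins that load the ribosome onto a messenger, find the start codon and then carry the ribosome along the coding sequence. The genes described here were taken from the deposited count table by symbol: every gene whose name begins with Eif1 to Eif6, Eef1 or Eef2, apart from the Eif2ak kinases. The rule found 61 of the 17857 genes in the table, of which 59 are protein coding in RefSeq. The other 2, the pseudogene Eif1-ps3 and the noncoding RNA gene Eif2c5, share the name alone and are no translation factors. All 59 coding members had a summed count of at least 10 over the libraries and were tested, and Eif1-ps3 and Eif2c5 did not reach it.

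The libraries form 1 group of 3, called replicates 1, 2 and 3 (labelled ckit_pos). They come from untreated C57BL/6J mice that carried B16F10 melanoma for 14 days, and each was made from 8 ng of total RNA. The cells were sorted from pooled tumour-draining lymph nodes as lacking CD11c and carrying Ly6c and c-kit, and the labels call them precursors. The sources used here give neither the number nor the age of the mice. There is no second population, so nothing below compares conditions. The labels speak of identical repeat experiments, and the spread behind each p-value is that of these 3 samples and may be technical.

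Initiation begins when eIF2 brings the initiator tRNA to the small ribosomal subunit, with eIF1, eIF1A, eIF3 and eIF5 in attendance. The eIF4 proteins bind the cap and unwind the leader, and eIF5B joins the large subunit. During elongation eEF1A delivers each aminoacyl-tRNA and eEF2 moves the ribosome onward. Lymphoid and myeloid cells adjust this machinery when they leave rest, largely through mTOR, which controls the eIF4E-binding proteins, and through kinases that phosphorylate eIF2.

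The libraries held 9077195, 13885509 and 13861430 counts. Mitochondrial genes took 17.8%, 6.22% and 13.1% of them in replicates 1, 2 and 3. Olfactory receptor genes, which leukocytes rarely use, averaged 0.249, 0.0207 and 0.0495 CPM per kilobase, so replicate 1 carried the most counts over such genes. Of the genes sorted on, Kit, which encodes c-kit, was read at 9.83, 5.35 and 5.92 CPM. The Ly6c genes differed between libraries, with 19.1, 4.28 and 17.6 CPM for Ly6c1 but 11.5, 121 and 41.2 CPM for Ly6c2, so Ly6c2 was highest where Kit and Ly6c1 were lowest. Itgax, which encodes CD11c, was read at 26.9, 43.2 and 24.0 CPM. Markers of other cell types were uneven, with erythroid markers summing to 3682, 50.1 and 258 CPM (5 of 6 read in all libraries), macrophage markers to 733, 74.7 and 179 (4 of 5), neutrophil markers to 161, 64.5 and 651 (4 of 5) and NK cell markers to 44.9, 422 and 163 (4 of 4). T cell markers summed to 2695, 3505 and 3383 CPM (7 of 7 read in all libraries), against 16.5, 17.0 and 8.05 CPM for 4 stem and progenitor markers, of which Mycn was at 0 in replicates 1 and 2 and Cd34 in replicate 2. Sums over all genes read in every library were 268, 101 and 146 CPM for 5 B cell markers, 602, 783 and 315 for 5 monocyte markers and 48.6, 53.6 and 30.1 for 4 conventional dendritic cell markers. The levels below are those of all RNA in the sorted samples, and the part of each cell type in them was not tested. In such bulk RNA, fewer cells of a type and less RNA per cell cannot be told apart.

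The 61 genes made up 1.20%, 1.38% and 1.17% of all counts in replicates 1, 2 and 3. Their 95% Wilson bounds, which cover counting error only, were 1.196 and 1.21% for replicate 1, 1.375 and 1.387% for replicate 2, and 1.167 and 1.179% for replicate 3. The mean share was 1.25 ± 0.112% (SD, n = 3). On all counts replicate 2 was the highest and the other libraries lay close together. With mitochondrial genes left out of the totals the shares were 1.46%, 1.47% and 1.35%, so that replicates 1 and 2 lay close together and replicate 3 was the lowest. Eef1a1 and Eef2 alone made up 36.2%, 38.7% and 32.5% of these counts, and the 14 eIF3 genes 22.4%, 20.3% and 22.0%. Leaving Eef1a1 and Eef2 out, the share was 0.767%, 0.846% and 0.792%.

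Levels are given as normalised read counts (CPM, counts scaled to a common library size) divided by the gene's length in kilobases, so that genes can be set beside each other. Values for replicates 1, 2 and 3 stand in that order, and means carry the SD over the 3 libraries (n = 3). In edgeR's quasi-likelihood test with Benjamini-Hochberg adjustment over 15490 genes, 58 of the 59 members tested lay above 1 CPM at an adjusted p under 0.05, against 68.6% of all genes. Above 10 CPM per kilobase lay 43 of 59, against 30.9% of all genes, and 5 lay below it, against 37.4% of all genes. The remaining 11 were not separated from 10 CPM per kilobase. The median member stood at 31.4 CPM per kilobase, beside 5.50 for all genes tested.

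The elongation factors spanned the widest range. Eef1a1 encodes the main eEF1A and was read at 1330.3, 1331 and 1117 CPM per kilobase, the 17th highest level of 15490 genes. Eef2 was read at 581, 940.4 and 649.9 CPM per kilobase and ranked 26th. Per kilobase Eef2 lay under Eef1a1 in each of the 3 libraries and was itself highest in replicate 2, while Eef1a1 was lowest in replicate 3. In CPM without length scaling the order changed between libraries, with 1800, 2915 and 2015 for Eef2 and 2381, 2382 and 1999 for Eef1a1. The mean log2 ratio of Eef2 over Eef1a1 was -0.83 ± 0.35 per kilobase and -0.03 in CPM without length scaling. Both lay above 10 CPM per kilobase in edgeR's test, with log2 differences of 6.98 (adjusted p = 1.35e-10) for Eef1a1 and 6.18 (1.22e-09) for Eef2. In mm10, Eef1a1 (Entrez gene 13627) spans chromosome 9, 78478453 to 78481724, and Eef2 (13629) spans chromosome 10, 81176631 to 81182509. Of the stretches of 50 bases in the Eef1a1 transcript, 60.6% also stood in transcripts of 21 other annotated genes. Reads of these copies cannot be told apart from its own over those stretches. If such reads were dropped in counting, which is not stated, Eef1a1 would be undercounted.

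The exchange complex eEF1B, which reloads eEF1A with GTP, was uneven between its subunit genes. Eef1b2, a catalytic subunit, was read at 222, 203 and 239 CPM per kilobase. Eef1g, the structural subunit, was read at 58.9, 91.1 and 73.3, and Eef1d, the other exchange subunit, at 50.3, 44.1 and 44.7. Eef1b2 was above both in each library, and Eef1g and Eef1d did not overlap per kilobase. In CPM without length scaling they did, with 92.3, 143 and 115 for Eef1g and 143, 125 and 127 for Eef1d. The order of Eef1g and Eef1d thus rests on the deposited lengths, 1565 and 2847 bases. Eef1a1 exceeded Eef1b2 by 5.98, 6.57 and 4.66 times per kilobase, a ratio named after its values were seen. Of the Eef1g stretches, 64.3% were shared with other genes, and Eef1g would be undercounted if such reads were dropped.

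Eef1a2, the eEF1A paralog of neurons and striated muscle, was nearly unread. It had 17, 1 and 1 counts in replicates 1, 2 and 3, or 0.878, 0.0349 and 0.0371 CPM per kilobase. It was the only coding member not separated from 1 CPM (edgeR adjusted p = 0.773). Against 10 CPM per kilobase its edgeR adjusted p was 0.0653, and 6.22e-04 with the DESeq2 Wald test, which placed it below. Its values in replicates 2 and 3 are under the limit that a count of 0 allows. Replicate 1, where it was highest, was also the library with the highest olfactory receptor level (0.249 CPM per kilobase), erythroid markers (3682 CPM) and macrophage markers (733 CPM), whose part in its counts was not tested. Per kilobase, Eef1a1 exceeded it 1515 times in replicate 1 (95% Clopper-Pearson interval 946 to 2601), and 38175 times in replicate 2 (interval from 6851) and 30083 times in replicate 3 (from 5399), where a single count leaves the ratio poorly fixed. None of the stretches of Eef1a2 stood in another gene.

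The partners and modifiers of elongation were far lower. Eef2k, the kinase that inhibits eEF2, was read at 4.43, 6.69 and 4.18 CPM per kilobase and lay below 10 CPM per kilobase (log2 difference -0.97, edgeR adjusted p = 0.00456). The methyltransferase genes Eef1akmt1 (14.8, 9.90 and 10.4) and Eef2kmt (9.14, 13.1 and 10.4), which modify lysines of eEF1A and eEF2, were not separated from it, with adjusted p = 0.393 and 0.536. Nor was Eef1e1, a scaffold of the multi-synthetase complex, at 9.56, 6.80 and 15.1 CPM per kilobase (0.823). Eef1e1 was the most uneven of the members above 1 CPM, highest in replicate 3 and lowest in replicate 2 by a factor of 2.22.

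Eif5a encodes the factor that carries hypusine, a modified lysine, and helps the ribosome past difficult peptide bonds. It was read at 56.2, 73.2 and 59.7 CPM per kilobase, and its paralog Eif5a2 at 2.48, 1.83 and 1.43. The groups of values were far apart in every library, with a mean log2 ratio of 5.06 ± 0.49 (33.4 times). Eif5a lay above 10 CPM per kilobase (edgeR adjusted p = 2.71e-07) and Eif5a2 below it (3.72e-04). Dhps, which starts the hypusine modification, was read at 16.0 ± 0.799 and Dohh, which completes it, at 9.86 ± 2.79.

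**Figure D1:**
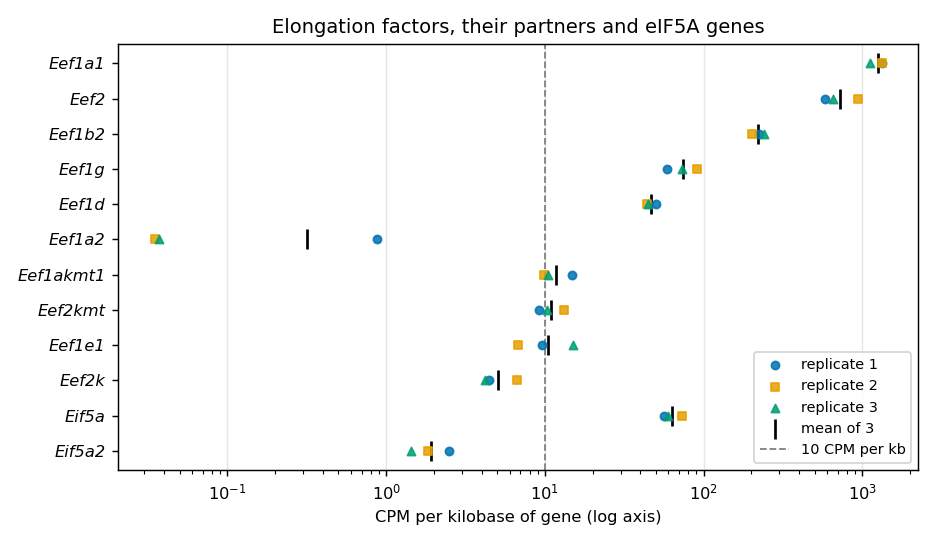
Level of 12 genes of elongation, their modifiers and eIF5A in CPM per kilobase (log axis), 1 symbol per library and a black tick for the mean of 3. Eef1a1 and Eef2 stand at the right (means 1259 and 724), the partners and modifiers lie between 4.18 and 15.1 around the dashed line at 10, and Eef1a2 is at the left with its highest value in replicate 1.

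Many messengers of this machinery begin with a cytosine followed by a run of pyrimidines, the terminal oligopyrimidine (TOP) tract through which mTOR controls their translation. A list of 9 members known for it was used: Eef1a1, Eef1b2, Eef1d, Eef1g, Eef2, Eif3e, Eif3f, Eif3h and Eif4b. All 9 lay above 10 CPM per kilobase in edgeR's test (30.9% of all genes did), with a median of 116 CPM per kilobase, beside 26.9 for the 50 other members tested. The ranges overlapped, since Eef1d stood at 46.3 ± 3.42 and Eif3a, outside the list, at 188 ± 10.4. A sequence around a RefSeq start was available here for 5 of the 9. For 4 of them the stretch of 30 bases around the longest run of C and T that opens with C, within 50 bases of that start on the gene's strand, is shown so that the runs and their places can be compared (GRCm38.p6, the run in capitals).
Eef1a1, chr9:78481708-78481737, minus strand: tggctccgCCCTCTTCCCgagggtggggga
Eef1b2, chr1:63176851-63176880, plus strand: tgcgtccgagcgCTTTCgttcaactccggc
Eif3f, chr7:108934403-108934432, plus strand: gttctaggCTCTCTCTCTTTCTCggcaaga
Eif4b, chr15:102073727-102073756, plus strand: agactccaCCCCTTCggccacatgtcgcgc
The runs were 10, 5, 15 and 7 bases long in Eef1a1, Eef1b2, Eif3f and Eif4b. Counted from the start as +1, they began at -5 in Eef1a1 and -4 in Eif3f, where they cross the annotated start, and at +33 in Eef1b2 and -38 in Eif4b, where they do not and are no terminal tract of that start. A run of 8 or more was found in 2 of the 5 with an available sequence (40.0%). The other strand was not searched. Such a run was found in 19 of the 45 tested members with an available sequence (42.2%) and in 32.6% of 11969 such genes tested. Runs also crossed the annotated start outside the list. Among such members, Eif2s3x had 12 bases from -1 and stood at only 2.73 ± 0.171 CPM per kilobase. Eif2b5 had 19 bases from -15 and stood at 25.4 ± 4.55. Whether members outside the list carry a TOP tract was not tested, so the medians above describe this list alone. RefSeq starts need not be the starts used in these cells.

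The genes of eIF3, the large scaffold that holds the small ribosomal subunit, were read at high and close levels apart from eIF3j. Eif3a, the largest subunit, was read at 178, 199 and 187 CPM per kilobase, and Eif3c, a core subunit, at 143, 138 and 144. Eif3b, another core subunit, was read at 50.7, 68.2 and 58.8, and Eif3l at 56.5, 56.9 and 63.6. Between these extremes lay Eif3h, Eif3f, Eif3k, Eif3g, Eif3e, Eif3i, Eif3d and Eif3m, with means from 60.6 ± 7.58 (Eif3m) to 139.9 ± 9.24 (Eif3h). These 12 genes thus spanned 3.19 times per kilobase by their means, and 3.51, 3.82 and 3.19 times within replicates 1, 2 and 3. All 12 passed above 10 CPM per kilobase (largest edgeR adjusted p = 4.08e-07). With the eIF3j genes counted in, this was 12 of 14 eIF3 genes, against 30.9% of all genes.

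eIF3j is a loosely bound subunit encoded by a pair of near-identical genes. Eif3j1 was read at 3.21, 5.09 and 5.26 CPM per kilobase and lay below 10 (edgeR adjusted p = 0.00771). Eif3j2 was read at 13.2, 10.6 and 12.0 and was not separated from it (0.158). Both genes stood under the other 12 in every library. Of the stretches of Eif3j2, 91.8% are shared with other genes, chiefly Eif3j1, and of Eif3j1 54.8%, so the split between them is uncertain. The treatment of reads with several matches is not stated. If they were dropped, both genes would be undercounted, so the level of the pair as a whole is uncertain too.

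Among the 12, the libraries differed little. Eif3c varied by 2.47% and Eif3i by 3.98% (SD over the mean), while Eif3f was the most uneven at 27.6%, lowest in replicate 1 (88.6) and highest in replicate 2 (151). Eif3e ran the other way, lowest in replicate 2 (70.1, against 96.7 and 102 CPM per kilobase in replicates 1 and 3).

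**Figure D2:**
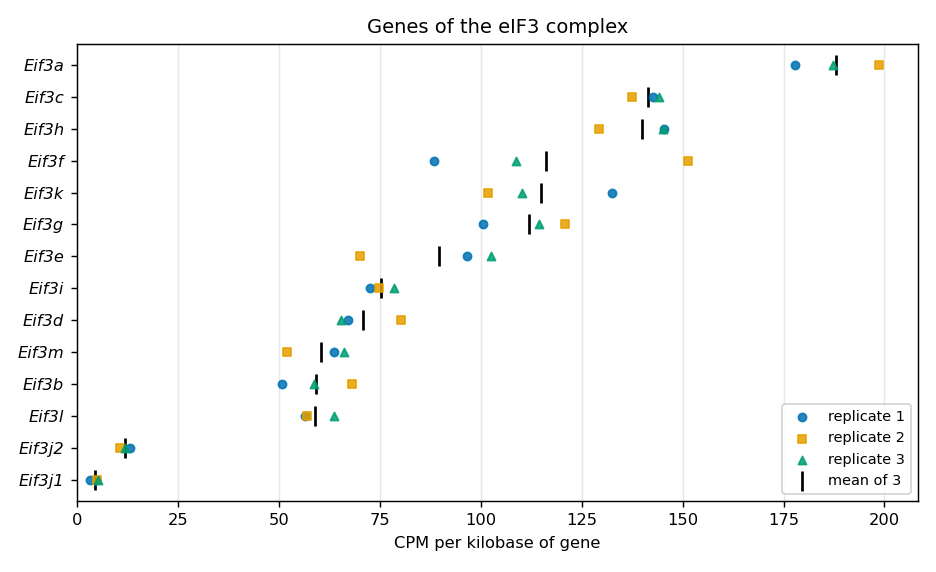
Level of the 14 eIF3 genes in CPM per kilobase (linear axis from 0), 1 symbol per library and a black tick for the mean of 3. From Eif3a (mean 188) to Eif3l (59.0) the genes form a gradual slope, and the Eif3j2 and Eif3j1 pair (12.0 and 4.52) stands apart near 0. The level of this pair is uncertain, since most of its stretches are shared.

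The genes of eIF2 were unequal. Eif2s1 encodes the alpha subunit, the target of the stress kinases, and was read at 29.3, 28.0 and 30.8 CPM per kilobase. Eif2s2, the beta subunit, was read at 25.9, 17.5 and 29.6, close to Eif2s1 (mean log2 ratio of Eif2s1 over Eif2s2 0.30 ± 0.33). Eif2s3x, the gamma subunit that binds GTP and the tRNA, was read at only 2.80, 2.86 and 2.54. Eif2s1 exceeded Eif2s3x by 10.4, 9.74 and 12.1 times, a ratio named after its values were seen. In edgeR's test Eif2s1 (adjusted p = 9.33e-06) and Eif2s2 (1.82e-04) lay above 10 CPM per kilobase and Eif2s3x below it (5.83e-04). The X-linked Eif2s3x (Entrez gene 26905, X, 94188709 to 94212651 in mm10) shares 36.2% of its stretches with other annotated genes and Eif2s2 27.8%, whose part in these levels was not tested.

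The lesser-used tRNA carriers Eif2a (14.4, 15.8 and 14.8 CPM per kilobase) and Eif2d (13.4, 13.6 and 13.5), which serve non-canonical initiation, differed little between libraries. Eif2d had the smallest SD over the mean of the 59 members, 0.730%. Both passed narrowly above 10 CPM per kilobase (edgeR adjusted p = 0.00805 and 0.0314). Eif2d lost the call when any 1 library was left out (0.0607 to 0.156) and Eif2a without replicate 3 (0.0515).

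eIF2B recharges eIF2 with GTP and is the complex that phosphorylated eIF2 blocks. Eif2b5, its catalytic epsilon subunit, was read at 20.2, 28.8 and 27.2 CPM per kilobase. Eif2s1 stood at 1.45, 0.971 and 1.13 times the level of Eif2b5, a ratio named after its values were seen. Eif2b2 (11.0, 17.4 and 15.8), Eif2b4 (13.2, 16.3 and 11.5) and Eif2b1 (8.07, 10.1 and 8.23) followed. Eif2b3, the gamma subunit and partner of Eif2b5, was lowest per kilobase at 3.65, 5.16 and 4.31. In CPM without length scaling Eif2b3 stood at 14.7, 20.8 and 17.3, beside 15.6, 19.6 and 15.9 for Eif2b1. The place of Eif2b3 under Eif2b1, and its call below, thus rest on the deposited lengths, 4022 and 1938 bases. All 5 genes were highest in replicate 2, as were 32.0% of all genes. Eif2b5 lay above 10 CPM per kilobase (edgeR adjusted p = 6.27e-05) and Eif2b3 below it (0.00208). Eif2b2 (0.0271) and Eif2b4 (0.0394) lay above it, but Eif2b2 was not called without replicate 2 (0.0992) or 3 (0.135), nor Eif2b4 without any 1 library (0.0657 to 0.202) or with the DESeq2 Wald test (0.0578). Eif2b1 was not separated from it (0.393).

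Genes for scanning and start codon choice were read at middle to high levels. Eif5, the GTPase activator of eIF2, was read at 89.3, 81.0 and 95.4 CPM per kilobase and Eif1, which guards start codon choice, at 88.9, 69.3 and 88.9. Eif1b, the paralog of Eif1, was read at 30.3, 30.4 and 29.2, below Eif1 in every library (mean log2 ratio of Eif1 over Eif1b 1.45 ± 0.23). For eIF1A, Eif1ax was read at 40.3, 22.7 and 38.1 and Eif1a at 12.1, 13.3 and 12.8. Eif1ax led per kilobase in all 3 libraries, by a mean log2 ratio of 1.36 ± 0.51, but in CPM without length scaling the mean ratio was -0.28. The deposited length of Eif1ax is 926 bases, whereas its GENCODE coding transcript has 5172, so its level per kilobase rests on that length. Eif1ad, which has an eIF1A-like domain, was read at 12.0, 19.0 and 15.4. All but Eif1a (edgeR adjusted p = 0.0565) lay above 10 CPM per kilobase.

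In the cap-binding complex the scaffolds and 1 helicase stood well above the cap-binding protein. Eif4e, which binds the cap, was read at 12.4, 10.9 and 14.3 CPM per kilobase and was not separated from 10 (edgeR adjusted p = 0.0807). Eif4g1, the main scaffold, was read at 71.1, 105 and 90.2, which is 5.73, 9.60 and 6.29 times Eif4e (a ratio named after its values were seen). The level of Eif4e, its call and this ratio rest on a deposited length of 2882 bases, whereas its closest GENCODE coding transcript has 1421 and would give a higher level per kilobase. Its paralog Eif4g3 was read at 41.9, 77.2 and 58.1, and Eif4g2, a scaffold that does not bind eIF4E, at 107, 115 and 127. The order of Eif4g2, Eif4g1 and Eif4g3 was the same in all 3 libraries, with mean log2 ratios of Eif4g1 of -0.40 ± 0.24 over Eif4g2 and 0.61 ± 0.16 over Eif4g3. Eif4e2, a cap-binding paralog that represses translation, was read at 16.1, 24.9 and 20.3, above Eif4e in every library (mean log2 ratio of Eif4e over Eif4e2 -0.69 ± 0.44). In CPM without length scaling that mean ratio was -1.46. The order per kilobase, too, rests on the deposited lengths, 2882 bases for Eif4e and 4928 for Eif4e2, against 1421 and 3473 in GENCODE. Eif4e3, another paralog, was read at 11.9, 6.95 and 11.5 and was not separated from 10 (0.958).

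Among the helicases Eif4a2 led. It was read at 112, 127 and 181 CPM per kilobase, highest in replicate 3. Eif4a1, the other eIF4A that serves initiation, was read at 22.7, 33.3 and 35.0, and Eif4a3, the helicase of the exon junction complex, at 22.8, 36.2 and 26.2. Eif4a1 lay below Eif4a2 in all 3 libraries (mean log2 ratio -2.20 ± 0.23, 0.218 times) and did not differ in a steady direction from Eif4a3 (0.10 ± 0.28). Of the stretches of Eif4a1, 65.3% stood in 8 other annotated genes, the pseudogene Eif4a-ps4 among them, beside 12.7% for Eif4a2 and 24.4% for Eif4a3. The treatment of such reads in counting is not stated by the labels. If they were dropped, Eif4a1 would be undercounted, so its level and its ratio to Eif4a2 are uncertain. In mm10, Eif4a1 (Entrez gene 13681) spans chromosome 11, 69666936 to 69672423, and Eif4a2 (13682) chromosome 16, 23107468 to 23114132, and both hold snoRNA genes. The helicase cofactors Eif4b (101 ± 10.6 CPM per kilobase) and Eif4h (42.3 ± 8.91) lay above 10 (edgeR adjusted p = 7.31e-08 and 2.71e-06).

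The eIF4E-binding proteins hold eIF4E off the scaffold until mTOR phosphorylates them. Eif4ebp2 was read at 36.4, 59.3 and 43.5 CPM per kilobase, Eif4ebp3 at 7.44, 15.0 and 11.7 and Eif4ebp1 at 6.36, 9.81 and 6.66. Eif4ebp2 was highest in every library, by a mean log2 ratio over Eif4ebp1 of 2.60 ± 0.10 (6.06 times), the steadiest of the 14 ratios computed. It also exceeded Eif4e, its target, by 2.93, 5.43 and 3.04 times per kilobase (named after its values were seen), on the same deposited length of Eif4e. Eif4enif1, which carries eIF4E into the nucleus, was read at 22.0, 26.6 and 25.5. Eif4ebp2 and Eif4enif1 lay above 10 CPM per kilobase (edgeR adjusted p = 2.33e-06 and 4.35e-05), and Eif4ebp1 (0.241) and Eif4ebp3 (0.481) were not separated from it. All 4 were highest in replicate 2, as were 33 of the 59 members tested and 32.0% of all genes. All 4 were also lowest in replicate 1, as were 34 of the 59 members and 35.2% of all genes.

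Subunit joining was served by genes of like level. Eif5b, the GTPase that joins the large subunit, was read at 32.5, 35.1 and 35.7 CPM per kilobase, and Eif6, which keeps the large subunit apart until it is mature, at 28.1, 35.2 and 30.8. The values overlapped, and both lay above 10 (edgeR adjusted p = 5.54e-06 and 9.97e-06).

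**Figure D3:**
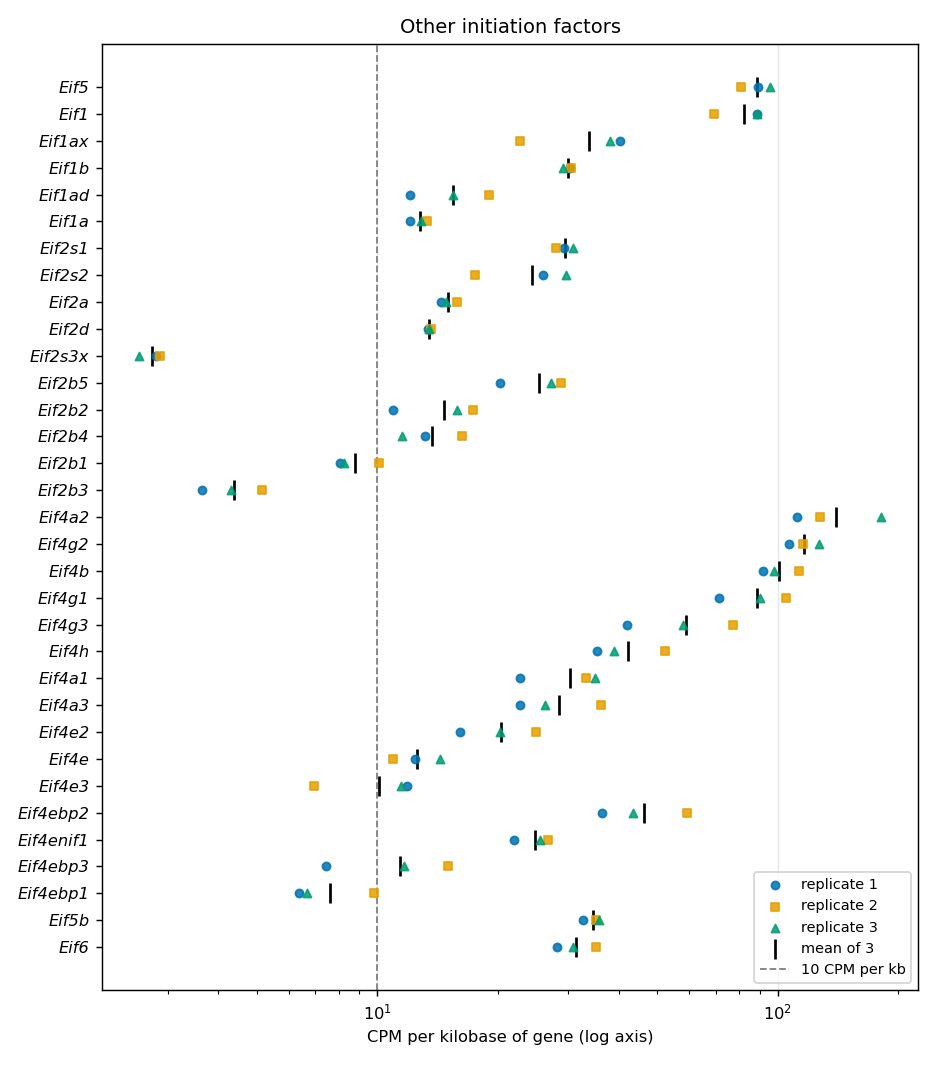
Level of 33 initiation factor genes outside eIF3 in CPM per kilobase (log axis), ordered within each role from high to low, 1 symbol per library and a black tick for the mean of 3. Eif4a2, Eif4g2 and Eif4b lead (means 140.0, 116 and 101), Eif4e3 straddles the dashed line at 10, and Eif2s3x, Eif2b3 and Eif4ebp1 lie left of it in all libraries.

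Ratios inside a library do not depend on its depth, and 14 were computed between paralogs, subunits or partner factors. For 13 the per-kilobase sign was the same in all 3 libraries, with p = 0.25 in an exact permutation test by two-sided sign flips. This is the smallest p that 3 libraries allow, and it was 0.269 after Benjamini-Hochberg adjustment over the 14. Eif4a1 over Eif4a3 changed sign between libraries (exact permutation p = 1). Such a design cannot reach a threshold of 0.05, so these ratios are given with their spread alone.

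**Figure D4:**
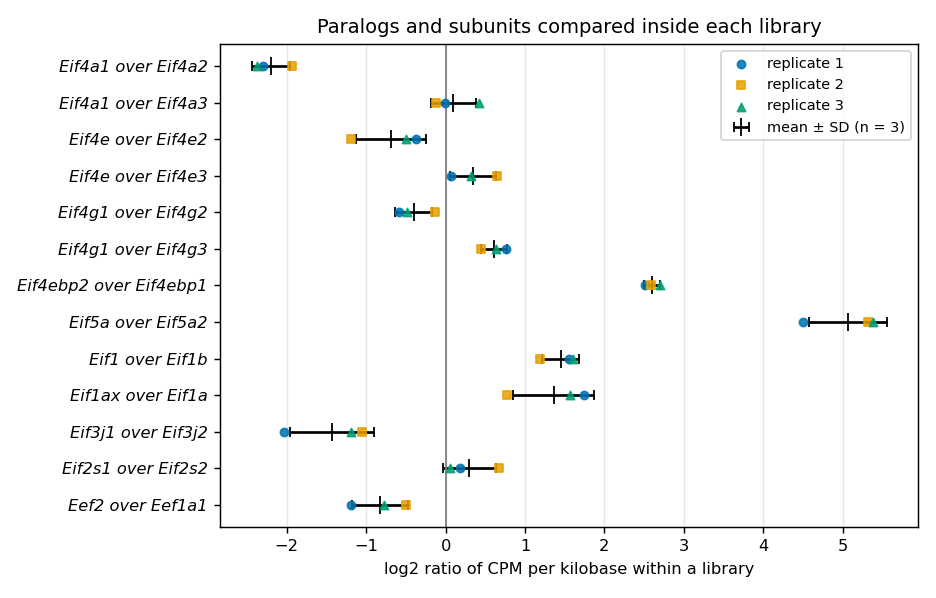
Ratios of CPM per kilobase inside each library (log2), 1 symbol per library, with the mean and SD of 3 as a tick and bar. Eef1a1 over Eef1a2 (mean log2 13.2) is left out for scale. Eif5a over Eif5a2 (5.06) and Eif4ebp2 over Eif4ebp1 (2.60) lie far right of 0, Eif4a1 over Eif4a2 (-2.20) far left, and Eif4a1 over Eif4a3 spans 0.

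Between libraries the members' median spread was below that of all genes. The SD over the mean had a median of 14.8% over the 59 members tested and 29.0% over all 15490 genes, which include many with few counts. Of the members, 10 were highest in replicate 1, 33 in replicate 2 and 16 in replicate 3, and of all genes 45.2%, 32.0% and 22.8%. The median member in replicate 2 stood at 1.09 times its mean in the other libraries, beside 0.899 for all genes. In replicate 1 it stood at 0.919, beside 1.05. Of the 17857 genes in the table, 632, 3788 and 2199 had no count in replicates 1, 2 and 3. The part of genes with few or no counts in the values for all genes was not tested. Mitochondrial genes (17.8%, 6.22% and 13.1% of counts) and the erythroid and macrophage markers were highest in replicate 1 and lowest in replicate 2. Their part in the differences between libraries was not tested. The order of the members was alike, with a Spearman rho of CPM per kilobase of 0.964 (replicates 1 and 2), 0.985 (1 and 3) and 0.976 (2 and 3) across the 59 genes, which are not independent replicates.

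Copies elsewhere in the genome touch several of these levels. In the coding transcript closest to the deposited length, 19 of 59 members had no stretch of 50 bases in common with another annotated gene, and the median was 3.17%. Over 20% was shared by 15 members and over 50% by 6: Eif3j2, Eif4ebp3, Eif4a1, Eef1g, Eef1a1 and Eif3j1. These 6 ranged from 4.52 (Eif3j1) to 1259 (Eef1a1) CPM per kilobase. In RefSeq, 27 of the 61 genes overlap another gene, 8 of them a snoRNA gene and 13 a protein coding gene. Deposited lengths differed most from the closest GENCODE coding transcript for Eif1ax, then for Eif3j1 (2367 against 5413 bases), Eef1e1 (1039 against 2553), Eif4e, Eif4e2 (4928 against 3473), Eif4ebp1 (981 against 1997) and Eif3f (1507 against 2514), and levels per kilobase use the deposited length.

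**Figure D5:**
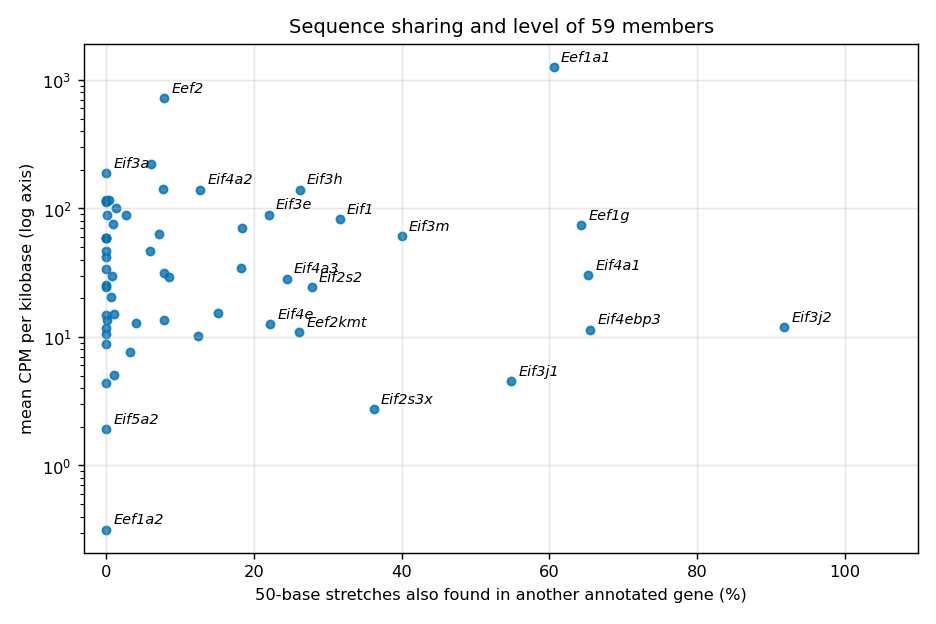
Share of 50-base stretches found in another annotated gene (x axis, percent) and mean CPM per kilobase (y axis, log) of the 59 coding members. Eef1a1 is at the top with 60.6% shared, whereas Eif4a1 (65.3%), Eif3j1 (54.8%) and Eif2s3x (36.2%) lie at 30.3, 4.52 and 2.73 CPM per kilobase, and Eif5a2 and Eef1a2 are low with none shared.

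Other genes of the pathway were read from lists. Of 21 measured genes of translation control, 17 lay above 10 CPM per kilobase (30.9% of all genes did) and 2 below it (37.4% of all genes). Pabpc1, the poly(A)-binding protein that bridges to eIF4G, was read at 462, 492 and 375 CPM per kilobase, and Pdcd4, an inhibitor of eIF4A, at 202, 348 and 302, above both Eif4a2 and Eif4a1 in each library. Lowest were Eif2ak4 (6.90 ± 0.498), the GCN2 kinase that senses uncharged tRNA, and Cyfip1 (6.68 ± 1.43), a partner of eIF4E, both below 10 (edgeR adjusted p = 0.0198 and 0.0232). Gcn1 was not analysed here.

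Of 13 further initiation, termination and recycling factors, 9 lay above 10 CPM per kilobase (30.9% of all genes) and 1 below it (37.4% of all genes). Ddx3x, a helicase of initiation, was read at 120 ± 12.2 and Abcf1, an ATPase that binds eIF2, at 67.3 ± 15.6. The release factor gene Etf1 stood at 43.6 ± 3.43, beside the recycling factor Abce1 at 43.6 ± 3.70. Lowest were Pelo (6.68 ± 2.64), a rescue factor, which was not separated from 10, and Gspt2 (0.444 ± 0.323), the paralog of the release factor Gspt1 (25.2 ± 3.87), which lay below it.

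Of 9 enzymes for hypusine and for diphthamide, the modified histidine of eEF2, 2 lay above 10 CPM per kilobase (Dph5 at 42.9 ± 6.09 and Dhps) and 3 below it (Dph2, Dph7 and Dph1, from 3.80 ± 1.27 for Dph1 to 5.81 ± 2.03 for Dph2). Of 9 mitochondrial translation factors, 3 lay above it, led by Mtif2 (18.7 ± 1.48) and Gfm1 (16.0 ± 3.40), and 4 below it, with Mtrf1 (2.54 ± 0.747) lowest. In both lists these counts lie near the shares over all genes, 30.9% above and 37.4% below. Tufm, the mitochondrial counterpart of eEF1A, was read at 2.02, 7.42 and 3.08 CPM per kilobase, uneven and highest in replicate 2, against 1330.3, 1331 and 1117 for Eef1a1.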

How the data were processed

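Total RNA from 3 libraries of 1 sorted mouse population was sequenced after a stranded total RNA preparation, per the labels' protocols. Per gene, the authors deposited raw read counts and a length in bases. Tools named in the submitters' processing notes, with no roles given, are bcl2fastq, STAR 2.75, featureCounts and DESeq2 1.18.1, and the build is mm10. The sources used here do not give the annotation release, strand setting, filters or treatment of reads with several matches, so overlapping genes and close copies may share reads.

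Genes with a summed count of at least 10 were tested (15490 of 17857). CPM used TMM factors of 1.04, 1.01 and 0.950 (edgeR 4.0.16, R 4.3.3). A count of 0 allows up to 3 counts, or 0.317, 0.214 and 0.228 CPM in replicates 1, 2 and 3. Intervals and this limit cover counting error only. Each level was tested against 1 CPM and against 10 CPM per kilobase with edgeR's quasi-likelihood F test of an intercept, written out because glmQLFTest takes no design of 1 column. The reference and the length entered through the offsets. The tests were two-sided, with Benjamini-Hochberg adjustment over all genes tested and a threshold of 0.05. A run on simulated data checked only the recovery of large set differences at a fixed spread between libraries. The rate of false calls was not checked. Pair ratios used 0.5 counts as pseudocount.

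No library pair agreed within sampling noise (chi-square per degree of freedom 118, 42.7 and 67.4). Coordinates and starts are from RefSeq for GRCm38.p6, the assembly of mm10, and shared stretches from GENCODE M21 transcripts of the same assembly. All 61 identifiers matched RefSeq. The stretch of 1 further gene is not reported here.

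Members and lists were chosen with earlier results of these data known. Values are given for the 2 highest and 2 lowest genes per kilobase of each role and list, for the members of the pairs, for genes not called above 1 CPM and for those whose libraries differed over 4 times, and for others in part. Alternatives were another normalisation, other filters, robust empirical Bayes, the DESeq2 1.42.0 Wald test, totals without mitochondrial genes and leaving out each library.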

Additional observations from a re-analysis of the deposited data

How the results depend on the processing

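The count of members above 1 CPM was 58 under each of the 9 alternatives run. The count above 10 CPM per kilobase was 39 to 41 when a library was left out (43 with all), 42 with the DESeq2 Wald test and 46 with totals free of mitochondrial genes, and the count below it was 5, or 6 with the Wald test, which added Eef1a2. Over all genes the count below it was 5795, but 8064 with the Wald test, 3737 with filterByExpr, which tested fewer genes, and 2249 without replicate 3. Eif1a, Eif4e and Eif3j2 gained the call without mitochondrial genes, and Eif1a also with filterByExpr. The summed share of counts was 1.43% of totals without mitochondrial genes and 1.45% without mitochondrial and ribosomal protein genes (1.25% of all counts), because the totals are smaller by construction. Of the 14 ratios, 2 reversed their mean sign. Eif1ax over Eif1a was -0.28 on the log2 scale without length scaling, and Eif4a1 over Eif4a3 ranged from -0.062 (without replicate 3) to 0.21 (without replicate 2). The first follows from the lengths. The second follows from log2 ratios of -0.0033, -0.12 and 0.42 in replicates 1, 2 and 3, of which only that of replicate 3 is positive. Why the libraries differ in this ratio was not tested. No paired analysis between conditions was possible because there is 1 group. A count of 1 in replicates 2 and 3 limits what can be said of Eef1a2.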

Other observations

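Eif1-ps3 had 3, 0 and 0 counts and Eif2c5 had 1, 0 and 1 in replicates 1, 2 and 3, all at or under the 3 counts that a count of 0 allows.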
